A study of Homo sapiens with 24 samples.

Results

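FOXP1 and its paralogs FOXP2, FOXP3 and FOXP4 were followed by every array probe that carries one of these 4 gene names. They are 11 of the 41000 probes on the array, 2 for FOXP1, 5 for FOXP2, 1 for FOXP3 and 3 for FOXP4, and 4 of its 30142 named genes. RNA came from 4 diffuse large B-cell lymphoma (DLBCL) lines, DB and K422 of the germinal centre B-cell subtype (GCB-DLBCL) and HBL-1 and OCI-Ly3 of the activated B-cell subtype (ABC-DLBCL). Each line is a single established line, so a subtype is represented by 2 lines. Cells were electroporated with 1 µM siFOXP1_308 (siFOXP1 #1), 1 µM siFOXP1_309 (siFOXP1 #2) or a low-GC negative control duplex (siCtrl), and were collected after 48 h. All cells, controls included, were therefore electroporated with an RNA duplex. Each of the 24 arrays compared 1 silenced RNA with siCtrl RNA of the same line, with 3 replicates, labelled as biological, for each siRNA in each line. The silenced RNA carried Cy3 and the control RNA Cy5 on all arrays, so a dye bias of a probe and an effect of silencing cannot be told apart within a line.

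The FOXP proteins are forkhead transcription factors that bind DNA as homodimers or heterodimers through a zinc finger and leucine zipper region, and act mostly as repressors. FOXP1 is needed for early B-cell development and is abundant in many ABC-DLBCL tumors. FOXP2 is best known for its part in speech and in neural development, FOXP3 defines regulatory T cells, and FOXP4 shares roles with FOXP1 and FOXP2 in the lung and other tissues. The paralogs were read to learn whether they were present in these lines, and whether they moved when FOXP1 was silenced.

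Positions are those of the hg18 build, as the scanner files give them. One FOXP1 probe (A_23_P155257) lies at chr3:71091098-71091157 on the minus strand, near the end of the coding sequence, and is called the coding probe below. The other (A_24_P362737) lies at chr3:71088711-71088770, 2387 bases further along the transcript, and is called the 3′ probe. The FOXP3 probe (A_23_P159709) spans an intron between chrX:48996569 and chrX:48997342. One FOXP2 probe (A_23_P134542, chr7:114086911-114089361) and one FOXP4 probe (A_23_P258703, chr6:41666991-41670597) span introns in the part that encodes the forkhead domain. The coding probe of FOXP1 and the probe of FOXP3 are shown because each carries a main reading of its gene, and the forkhead probes of FOXP2 and FOXP4 because they are the closest pair among the 11 probes. The sequences are those of the array design, 5′ to 3′.
FOXP1 coding probe: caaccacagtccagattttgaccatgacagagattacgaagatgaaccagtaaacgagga
FOXP3 probe: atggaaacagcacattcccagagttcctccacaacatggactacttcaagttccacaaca
FOXP2 forkhead probe: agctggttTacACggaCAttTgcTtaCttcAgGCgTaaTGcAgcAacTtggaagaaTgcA
FOXP4 forkhead probe: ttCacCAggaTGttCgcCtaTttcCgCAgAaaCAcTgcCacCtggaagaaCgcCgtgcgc
Capitals mark the bases at which the FOXP2 and FOXP4 probes differ over the 54 bases that they share when aligned. The pair agreed at 35 of these 54 bases (64.8%) and differed at 19. The FOXP1 coding and 3′ probes do not overlap on the transcript. The other FOXP2 probes lie at chr7:113853834-113853893 (A_24_P921683), chr7:114069852-114069911 (A_24_P16559), chr7:114072046-114079518 (A_24_P16556) and chr7:114119122-114119181 (A_24_P38316). The other FOXP4 probes lie at chr6:41676032-41676091 (A_24_P93855) and chr6:41676937-41676996 (A_24_P371892), both towards the 3′ end of its transcript.

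Each array had 57.2% to 64.4% of its probes well above background in either channel, and precision is limited by how many arrays there were. Scan 1 held DB with OCI-Ly3, and scan 2 held K422 with HBL-1. The B-cell markers MS4A1, CD79A, CD79B, CD22, PAX5 and BLK were each well above background in the control channel on all 6 arrays of every line. NK-cell markers were not, at 0 of 3 in every line. Of 6 T-cell markers, 2 were so in OCI-Ly3, 3 in HBL-1, 4 in K422 and 1 in DB, with CD4 in every line and CD3D and CD3G in K422 alone. Of 5 myeloid markers, 1, 2, 3 and 1 were so in the same order, with CSF1R in every line. Of 4 markers of epithelium and stroma, 1, 2, 1 and 1 were so, with KRT8 in every line and EPCAM in HBL-1 alone. Of 3 plasma-cell markers, 3, 2, 3 and 2 were so.

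Both siRNAs lowered FOXP1 in all 4 lines, and siFOXP1 #2 lowered it further than siFOXP1 #1. Values are log2 of the siFOXP1 signal over the siCtrl signal, per array. In DB, the coding probe read -0.95, -1.61 and -1.34 with siFOXP1 #1, and -2.71, -2.69 and -2.69 with siFOXP1 #2. In K422 it read -0.95, -0.96 and -0.83 with siFOXP1 #1, and -1.80, -1.79 and -1.70 with siFOXP1 #2. All 12 of these arrays lay below 0, and the arrays of the siRNAs did not overlap in either line. In HBL-1 the coding probe read -1.22, -1.57 and -1.09 with siFOXP1 #1, and -1.93, -2.50 and -2.14 with siFOXP1 #2. In OCI-Ly3 it read -1.48, -1.39 and -1.56 with siFOXP1 #1, and -2.51, -2.34 and -2.50 with siFOXP1 #2. The siRNAs did not overlap in these lines either. Expressed against siCtrl, siFOXP1 #1 left 35.9% of the signal in OCI-Ly3, 40.8% in HBL-1, 53.1% in K422 and 40.6% in DB, as geometric means over 3 arrays. The corresponding shares with siFOXP1 #2 were 18.3%, 21.9%, 29.4% and 15.4%, in the same order. The fall was called in every line, a call being a Benjamini-Hochberg adjusted p under 0.05 over all probes in limma together with a change of at least 0.5 on the log2 scale. The adjusted p was 2.68e-11 in OCI-Ly3, 4.39e-11 in HBL-1, 3.88e-09 in K422 and 4.13e-11 in DB, with a standard error of 0.08 in each. Lower calls made up 1.64% of all probes in OCI-Ly3, 4.33% in HBL-1, 1.93% in K422 and 0.844% in DB.

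**Figure D1:**
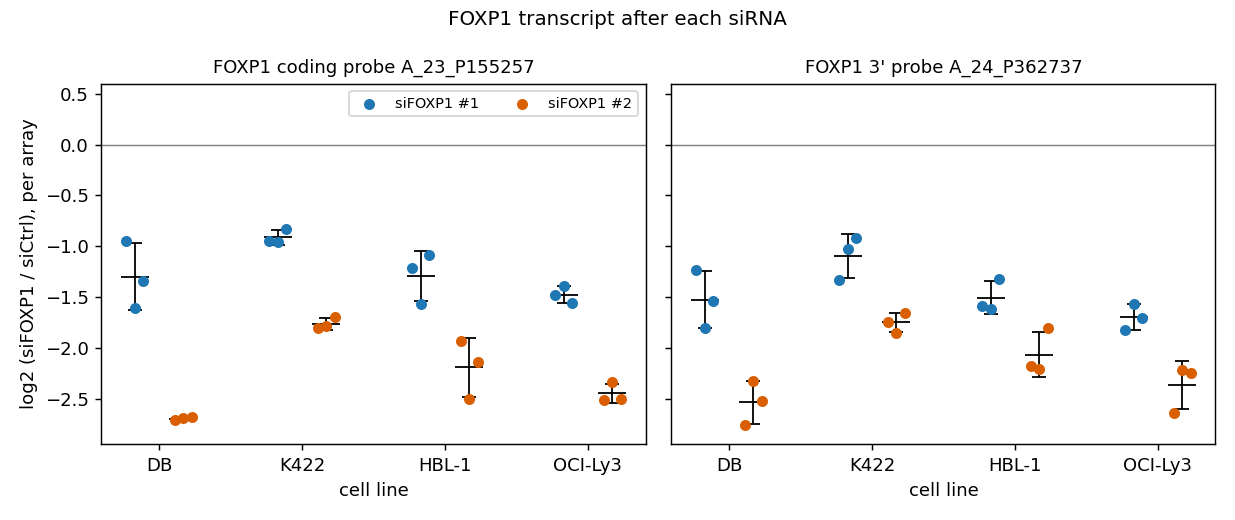
Log2 ratio of siFOXP1 over siCtrl for both FOXP1 probes on each of the 24 arrays, by line and siRNA, with the mean and SD of 3 arrays. Every array lies below 0 at both probes, and siFOXP1 #2 lies below siFOXP1 #1 in each line.

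The 3′ probe, which samples the same transcript at another place, also fell in every line. In DB it read -1.24, -1.81 and -1.54 with siFOXP1 #1, and -2.76, -2.33 and -2.52 with siFOXP1 #2. In OCI-Ly3 it read -1.82, -1.57 and -1.70, and -2.64, -2.22 and -2.25, in the same order. The arrays of the siRNAs did not overlap here or in K422 and HBL-1. The mean over the 6 arrays of a line was -2.03 ± 0.40 in OCI-Ly3, -1.79 ± 0.35 in HBL-1, -1.42 ± 0.39 in K422 and -2.03 ± 0.60 (SD, n = 6) in DB, and each was called by limma. The probes moved together, with a Pearson correlation of 0.95 over the 24 ratios and 0.94 within lines, which is a description of arrays that share their labelled RNA.

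The difference between siRNAs was called for the coding probe in every line. siFOXP1 #2 minus siFOXP1 #1 was -0.97 in OCI-Ly3 (limma adjusted p = 0.00761), -0.90 in HBL-1 (0.0149), -0.85 in K422 (0.0284) and -1.40 in DB (0.000341), with a standard error of 0.15. Calls between the siRNAs made up 0.166% of all probes in OCI-Ly3, 0.185% in HBL-1, 0.134% in K422 and 0.324% in DB. At the 3′ probe the difference was -1.01 in DB (limma adjusted p = 0.00902), and was called in that line alone. For OCI-Ly3, HBL-1 and K422 it was -0.67, -0.56 and -0.65, with adjusted p of 0.153, 0.302 and 0.154 and 95% intervals that ran from -1.02 to -0.32, from -0.90 to -0.21 and from -0.9998 to -0.31. Over the 12 pairs of line and replicate number, siFOXP1 #2 was below siFOXP1 #1 in 12 of 12 at either probe. The mean difference was -1.03 ± 0.28 at the coding probe and -0.72 ± 0.30 at the 3′ probe (SD, n = 12), and the exact two-sided sign-flip permutation p was 0.000488 for each, the smallest that 12 pairs allow. With same-numbered arrays as a block, the coding probe stayed called in all 4 lines and the 3′ probe in DB, while calls over all probes in DB rose from 133 to 365. The coding-probe call was lost in all 4 lines with each line fitted alone or with normexp and median centring, the value staying between -1.51 and -0.57. It was also lost in K422 without any 1 replicate (-0.86 to -0.84), in HBL-1 without replicate 3 (-0.82) and in OCI-Ly3 without replicate 1 (-0.94).

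The probes differed little when both siRNAs were averaged. The coding probe minus the 3′ probe was 0.06 ± 0.13 (SD, n = 12), with 8 pairs above 0 and 4 below, and the exact two-sided sign-flip permutation p was 0.159. The gap between siRNAs was wider at the coding probe, by -0.31 ± 0.17 on the log2 scale, in 12 of 12 pairs (exact two-sided sign-flip permutation p = 0.000488), a comparison chosen after the values were seen. With siFOXP1 #1 the coding probe lay above the 3′ probe in 12 of 12 pairs, by 0.21 ± 0.11. With siFOXP1 #2 it lay below in 8 of 12, by -0.09 ± 0.19. The siRNA sequences were not among the sources used here, so their target sites were not placed against the probes.

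None of the 3 differences tested between lines in the fall of FOXP1 was called. HBL-1 fell further than K422 at the coding probe, by -0.40 with a standard error of 0.11 and a 95% interval from -0.63 to -0.18 (limma adjusted p = 0.0229), which lies under the limit of 0.5 and was not called. OCI-Ly3 and DB, which were scanned together, differed by 0.03 (95% interval from -0.19 to 0.26, adjusted p = 0.960). The mean of the ABC-DLBCL lines minus that of the GCB-DLBCL lines was -0.18 (95% interval from -0.34 to -0.02, adjusted p = 0.161). At the 3′ probe the same differences were -0.37, -0.00 and -0.18, and none was called. Line differences were called for 4.24% of probes between HBL-1 and K422, 1.44% between OCI-Ly3 and DB, and 2.17% between the subtypes.

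FOXP1 was higher in siCtrl-treated ABC-DLBCL lines than in GCB-DLBCL lines. Levels are log2 of the Cy5 control signal minus the 75th percentile of its array, and they compare 1 probe between lines, never one probe with another. The coding probe read 3.87, 3.94 and 3.84 in DB and 4.17, 4.19 and 4.22 in K422, for replicate numbers 1 to 3. It read 5.46, 5.58 and 5.45 in HBL-1 and 5.63, 5.44 and 5.48 in OCI-Ly3. The ABC-DLBCL values lay above all GCB-DLBCL values, and HBL-1 and OCI-Ly3 overlapped. In order the means were 5.52 ± 0.10 in OCI-Ly3 (SD, n = 3), 5.50 ± 0.07 in HBL-1, 4.19 ± 0.02 in K422 and 3.88 ± 0.05 in DB. OCI-Ly3 exceeded DB 3.11-fold (limma adjusted p = 1.42e-07) and HBL-1 exceeded K422 2.48-fold (1.10e-06), each within 1 scan session. These calls stand among 39.9% and 39.8% of all probes called between those lines. The neighbours OCI-Ly3 and HBL-1 differed by 0.02 (95% interval from -0.22 to 0.25, adjusted p = 0.889), and K422 minus DB was 0.31 (adjusted p = 0.0254), under the limit of 0.5. Of all probes, 43.2% and 45.4% were called between these neighbours. At the 3′ probe OCI-Ly3 exceeded DB by 1.40 and HBL-1 exceeded K422 by 1.75 on the log2 scale, and OCI-Ly3 lay below HBL-1 by -0.38 (adjusted p = 0.0348, not called). In bulk RNA, fewer cells with the transcript and less transcript per cell cannot be told apart.

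At the coding probe, the FOXP1 level of each ABC-DLBCL line after siFOXP1 #1 overlapped that of siCtrl cells of the GCB-DLBCL line on its scan, and after siFOXP1 #2 it lay lower. HBL-1 with siFOXP1 #1 read 4.20 ± 0.18, beside 4.19 ± 0.02 in K422 controls on the same scan. OCI-Ly3 with siFOXP1 #1 read 4.04 ± 0.16, beside 3.88 ± 0.05 in DB controls. With siFOXP1 #2 the levels were 3.32 ± 0.25 in HBL-1 and 3.07 ± 0.03 in OCI-Ly3, all below those of the respective GCB-DLBCL controls. The 3′ probe differed here. After siFOXP1 #1 it read 1.63 ± 0.11 in OCI-Ly3, below all DB controls (1.92 ± 0.09). In HBL-1 it read 2.20 ± 0.20, beside 1.95 ± 0.05 in K422 controls. After siFOXP1 #2 the 3′ probe stood lower than those controls, at 0.94 ± 0.02 in OCI-Ly3 and 1.62 ± 0.21 in HBL-1. These silenced levels are the control level plus the ratio on the same array and were not tested. They are values of single arrays, while control values average same-numbered arrays, so the SDs are of unlike units. Single K422 control arrays ran from 3.97 to 4.37 at the coding probe.

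**Figure D2:**
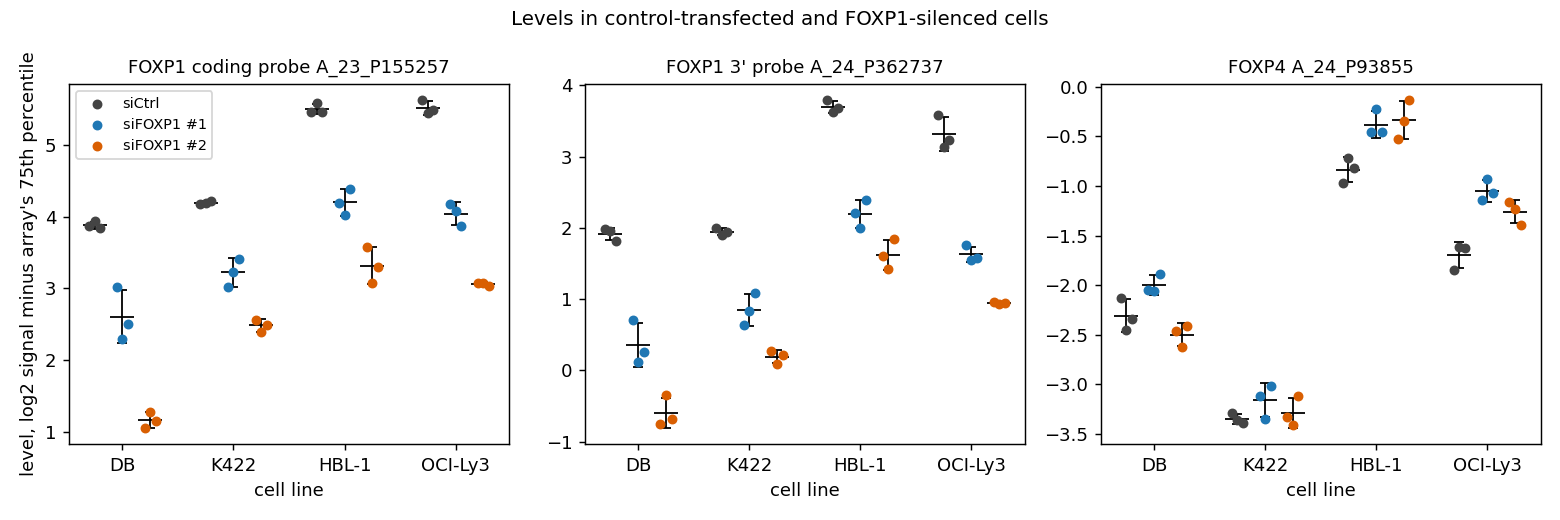
Level of both FOXP1 probes and of FOXP4 A_24_P93855 in siCtrl cells (dark grey) and after siFOXP1 #1 (blue) or siFOXP1 #2 (orange), as log2 signal minus the 75th percentile of the array, with points for 3 values and bars for their mean and SD. At the FOXP1 coding probe the control means are 5.50 in HBL-1 and 5.52 in OCI-Ly3, above 3.88 in DB and 4.19 in K422.

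Of the 9 probes for FOXP2, FOXP3 and FOXP4, none was called on FOXP1 silencing in DB, K422 or HBL-1, and 1 was called in OCI-Ly3. At an unadjusted limma p under 0.05 there were 2, 0, 3 and 4 of 9, in the order DB, K422, HBL-1, OCI-Ly3, and the methods' t-test at a p under 0.05 gave 1, 0, 3 and 2. Calls in either direction made up 2.17%, 4.25%, 9.88% and 4.62% of all probes in those lines. Only 1, 1, 2 and 2 of the 9 probes were well above background in both channels on all 6 arrays, and 6 of the 9 were so in no line.

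FOXP4, the paralog measured in all 4 lines, was the one called. Its brightest probe (A_24_P93855) read 0.72, 0.60 and 0.63 with siFOXP1 #1 and 0.67, 0.47 and 0.17 with siFOXP1 #2 in OCI-Ly3. In HBL-1 it read 0.40, 0.49 and 0.40, and 0.56, 0.38 and 0.64. All 12 arrays of the ABC-DLBCL lines lay above 0. In DB the same probe read 0.12, 0.35 and 0.46, and -0.38, -0.14 and -0.07. In K422 it read 0.12, -0.08 and 0.46, and 0.01, 0.05 and 0.19, so both GCB-DLBCL lines lay on either side of 0. The means were 0.54 ± 0.20 in OCI-Ly3 (SD, n = 6, limma adjusted p = 2.59e-05), 0.48 ± 0.10 in HBL-1 (3.00e-05, under the limit of 0.5), 0.06 ± 0.32 in DB and 0.13 ± 0.19 in K422. Higher calls made up 2.97% of all probes in OCI-Ly3. The difference in response was 0.49 for OCI-Ly3 minus DB (adjusted p = 0.00849), 0.35 for HBL-1 minus K422 (0.0270) and 0.42 between the subtypes (0.000790), each under the limit of 0.5 and so not called. With normexp and median centring these differences were 0.38, 0.17 and 0.28 (limma adjusted p = 0.417, 0.898 and 0.199). With normexp and loess they were 0.39, 0.33 and 0.36 (0.00598, 0.0101 and 0.000200). With the replicate block the limma adjusted p were 0.0209, 0.0523 and 0.00215. OCI-Ly3 minus DB was called without DB replicate 2 (0.51) or 3 (0.56) or OCI-Ly3 replicate 3 (0.56). Under normexp background correction the mean change in OCI-Ly3 was 0.44 with loess and 0.42 with median centring, and without replicate 1 it was 0.47, which ended the call. The HBL-1 value was 0.42 with loess and 0.24 with median centring (adjusted p = 0.0559).

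The other FOXP4 probes were dimmer. The forkhead probe (A_23_P258703) read 0.46, 0.19 and 0.29, and 0.72, 1.20 and 0.03 in OCI-Ly3, a mean of 0.48 (adjusted p = 0.0357), and averaged 0.02 in HBL-1. These are the only lines in which it was well above background in the control channel on at least 5 of 6 arrays. The most 3′ probe (A_24_P371892) averaged 0.64 in OCI-Ly3, 0.62 in HBL-1, -0.01 in K422 and 0.77 in DB, none called, and its control channel was well above background on 1, 2, 0 and 0 arrays. In control cells the brightest FOXP4 probe stood at -1.70 ± 0.13 in OCI-Ly3 (SD, n = 3), -0.84 ± 0.13 in HBL-1, -3.35 ± 0.05 in K422 and -2.31 ± 0.17 in DB. From high to low the order was HBL-1, OCI-Ly3, DB, K422, and no neighbours overlapped. HBL-1 exceeded K422 5.71-fold (limma adjusted p = 2.85e-08) and OCI-Ly3 exceeded DB 1.53-fold (0.00198). With normexp the log2 differences were smaller, at 1.61 for HBL-1 minus K422, which stayed called, and at 0.32 for OCI-Ly3 minus DB, -0.72 for OCI-Ly3 minus HBL-1 and -0.57 for K422 minus DB, which were not called. OCI-Ly3 minus DB was also not called with quantile scaling (0.49).

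**Figure D3:**
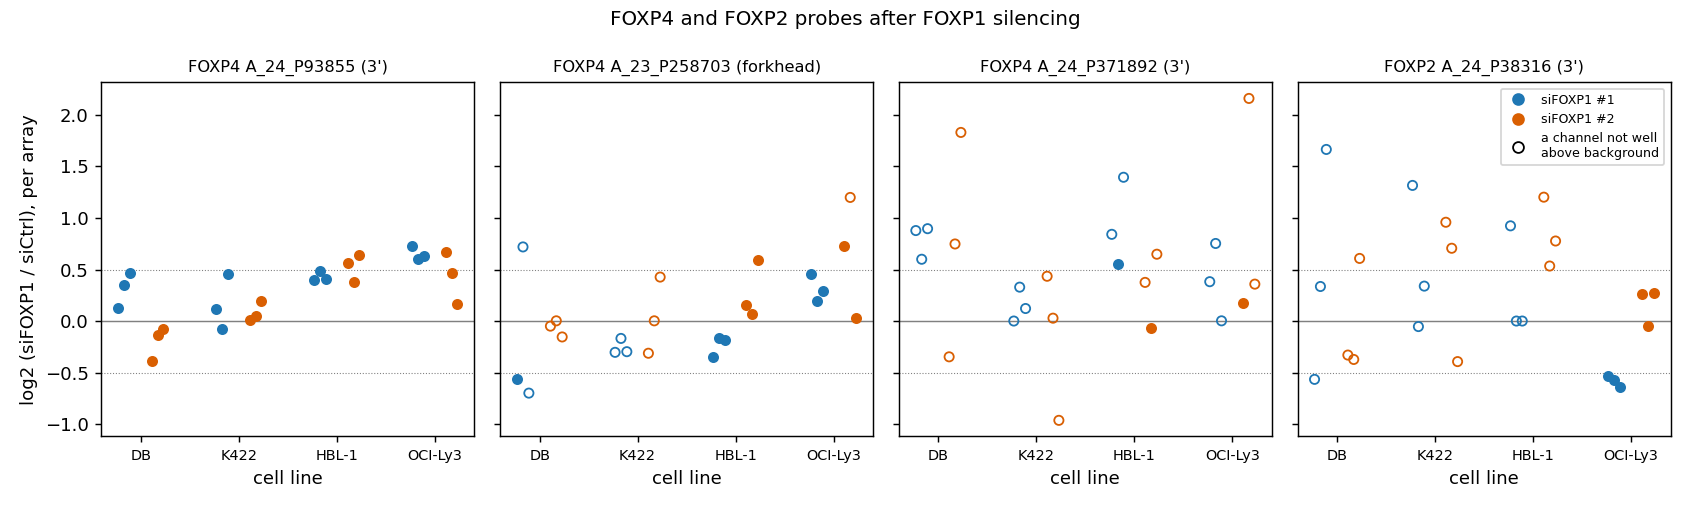
Log2 ratio of siFOXP1 over siCtrl for the 3 FOXP4 probes and FOXP2 A_24_P38316 on each array, by line and siRNA, where filled points were well above background in both channels and open points were not. The points of FOXP4 A_24_P93855 lie above 0 on all arrays of HBL-1 and OCI-Ly3, and dotted lines mark the limit of 0.5 in either direction.

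FOXP2 had a probe well above background on all 6 arrays in OCI-Ly3 only, and by 1 of its 5 probes. On all 6 OCI-Ly3 arrays both channels of the 3′ probe A_24_P38316 were well above background, while its control channel was so on no array of DB, K422 or HBL-1 and its silenced channel on 1 array of DB and 3 of K422. Its control level in OCI-Ly3 was -1.04 ± 0.14 (SD, n = 3). The measured difference from DB, which shared its scan, was 5.46 on the log2 scale (limma adjusted p = 1.82e-07). That test used DB values that were not well above background. Against a floor instead, the OCI-Ly3 level was 15.0-fold higher for DB and, across scans, 21.4-fold for K422 and 22.2-fold for HBL-1. The floor is the lowest signal among probes well above background on the dim arrays. Probes that are not well above background can read above it, so these folds are not strict lower limits, and they were not tested. The other 4 FOXP2 probes, the forkhead probe among them, were not well above background on any OCI-Ly3 array. On silencing, the 3′ probe read -0.54, -0.57 and -0.64 with siFOXP1 #1 and 0.26, -0.05 and 0.28 with siFOXP1 #2. The siRNAs did not overlap, and siFOXP1 #1 lay below 0 on all 3 arrays. The difference between them was 0.75 with a standard error of 0.48 (adjusted p = 0.874), an error drawn from all 24 arrays, of which 18 were of lines where the control signal was not well above background. The mean change was -0.21 ± 0.43 (SD, n = 6, adjusted p = 0.644).

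FOXP3 gave no usable level in any line. Its probe was well above background on no array in the control channel, and on 1 HBL-1 array in the silenced channel. No fold is given for it.

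The array design names 6 transcripts that lie on the minus strand between the FOXP1 probes and the neighbouring gene EIF4E3, and some of them were called higher in HBL-1 or OCI-Ly3. The outermost (THC2610890) lies 622781 bases from the 3′ probe. In RefSeq, where the build is GRCh38 and its coordinates were not used, the FOXP1 gene is 629271 bases long. No annotation of the files' build was at hand to place the 6 inside or outside it. Of these, 0 were called in DB and K422, while 2 were called higher in HBL-1 and 5 in OCI-Ly3. Higher calls made up 1.32% of all probes in DB, 2.32% in K422 and 5.54% in HBL-1. The corresponding share for OCI-Ly3 was 2.97%. Its 5 calls include THC2503773, well above background in neither channel, and THC2651036, which kept its call in 7 of 14 alternative settings. At an unadjusted limma p under 0.05 there were 4 in DB and 1 in K422, and the methods' t-test gave 4 and 2. In DB, AK022443, THC2639689, THC2651036 and THC2610890 were higher on 6 of 6 arrays. Their DB means ran from 0.38 to 0.42, under the limit of 0.5 (limma adjusted p = 0.0236, 0.0885, 0.0599 and 0.00588). With siFOXP1 #1 alone, AK022443 was called in DB (0.54, limma adjusted p = 0.0440).

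AK022443 (chr3:71283568-71283627) averaged 0.86 ± 0.37 in HBL-1 and 0.89 ± 0.15 in OCI-Ly3 (SD, n = 6, limma adjusted p = 1.52e-05 and 3.32e-05). It averaged 0.42 in DB and -0.11 in K422. THC2639689 (chr3:71400957-71401016) gave 0.89 ± 0.41 and 0.98 ± 0.26 in the ABC-DLBCL lines (7.57e-05 and 8.26e-05), 0.38 in DB and -0.14 in K422. Both responded more in HBL-1 than in K422, by 0.97 (adjusted p = 0.000849) and 1.04 (0.00253). Leaving out K422 replicate 1 brought the K422 mean of each to 0.07. For OCI-Ly3 minus DB the differences were 0.48 (0.154) and 0.60 (0.135), which were not called. With normexp the OCI-Ly3 values were 0.47 and 0.46 with loess and 0.45 and 0.44 with median centring, under the limit, and with median centring those of HBL-1 were 0.46 and 0.41, also under it. THC2610890 (chr3:71711492-71711551) rose in OCI-Ly3, by 1.04 ± 0.33 (adjusted p = 3.31e-07), on every array from 0.70 to 1.45, and averaged 0.39 in DB, 0.18 in K422 and -0.13 in HBL-1. OCI-Ly3 minus DB was 0.66 (adjusted p = 0.00471). Control signals of these transcripts, as mean log2 without scaling, differed between lines. AK022443 and THC2639689 read 10.52 and 10.39 in K422, against 7.36 and 7.04 in HBL-1. They read 6.26 and 6.14 in OCI-Ly3, against 7.21 and 7.49 in DB. THC2610890 read 12.11 in K422, 11.88 in HBL-1, 10.04 in DB and 8.14 in OCI-Ly3. Whether the brightness of a probe bears on its ratio was not tested. THC2651036 was called in OCI-Ly3 at 0.55 ± 0.49 (0.00482), higher on 5 of 6 arrays, but not with either normexp setting (0.23 in both), with OCI-Ly3 alone, by the methods' t-test, with siFOXP1 #1 alone (0.24), or without replicate 1 (0.48) or 3 (0.44). THC2503773 was called in OCI-Ly3 with neither channel well above background, so it has no fold. THC2645586 was called in no line. The other 7 genes within 1000000 bases of a FOXP1 probe (MITF, AA778291, LOC654340, EIF4E3, GPR27, THC2522889 and PROK2) were mostly not well above background. Only EIF4E3, by 1 of its 3 probes, passed background on more than 2 arrays of a line, in K422, on 5 control and 6 silenced arrays, with a mean of 0.38 (adjusted p = 0.153). THC2522889 was called lower in HBL-1 with neither channel well above background, so it has no fold either.

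**Figure D4:**
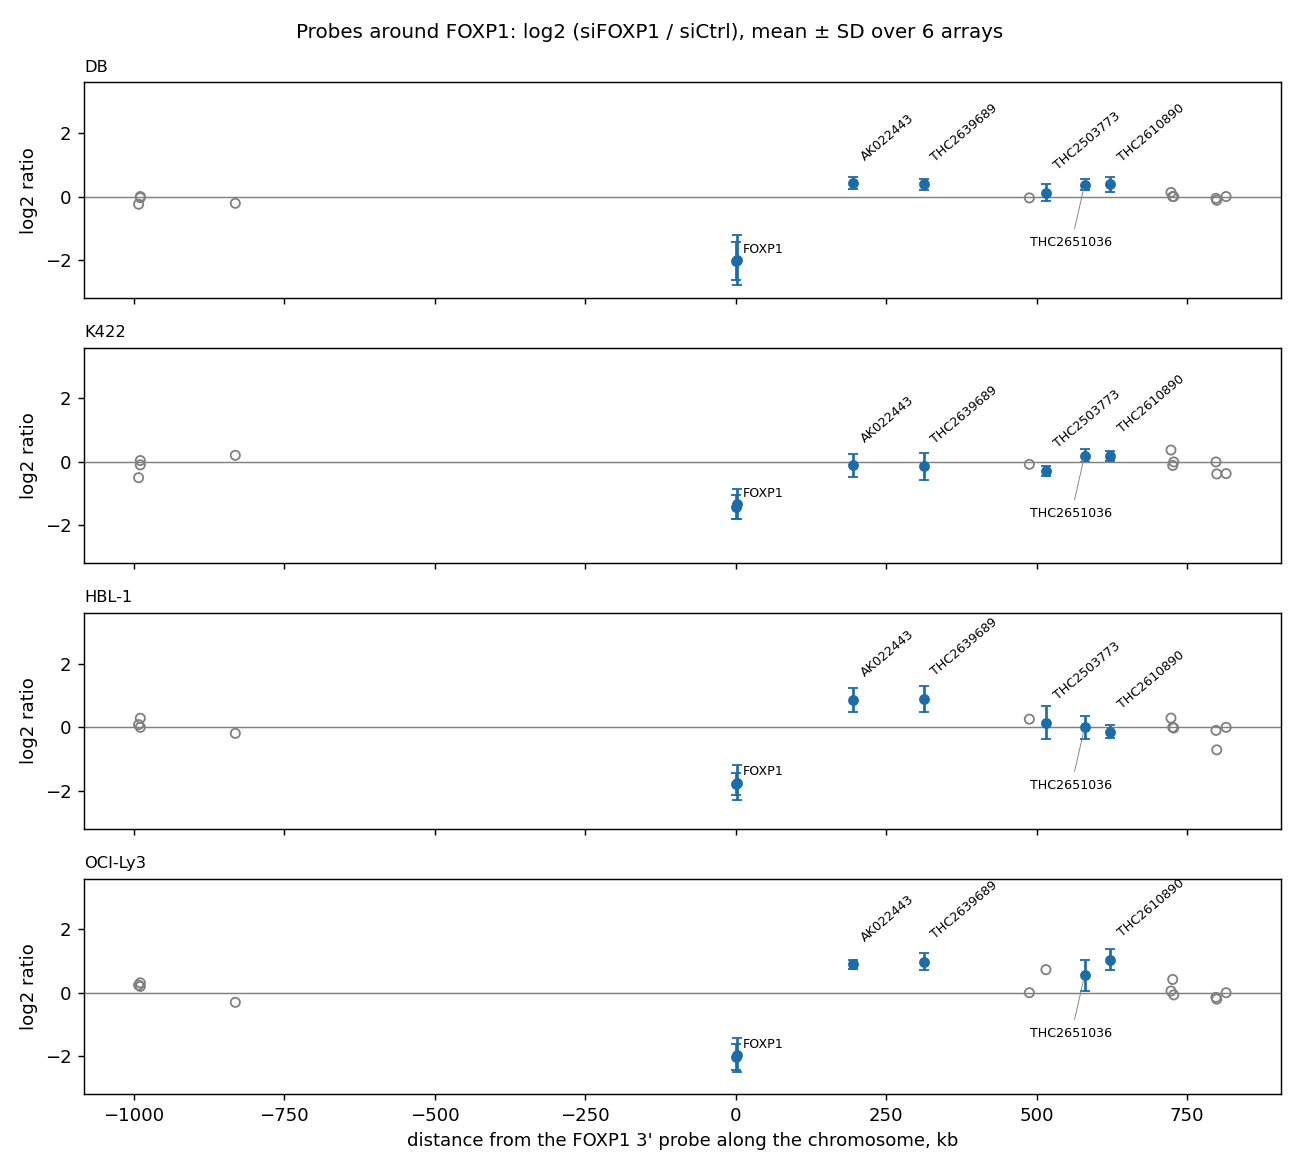
Mean log2 ratio of siFOXP1 over siCtrl, with SD over 6 arrays, for each probe within 1000000 bases of a FOXP1 probe, against distance in kb from the FOXP1 3′ probe, 1 panel per line, where open grey circles were not well above background in both channels on all 6 arrays. The FOXP1 probes average -2.03 to -1.34, while the transcripts at AK022443 and THC2639689 average 0.86 to 0.98 in HBL-1 and OCI-Ly3.

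Genes of 5 lists around the FOXP family were counted, each gene by its brightest probe. Over all genes the calls made up 4.47% in OCI-Ly3, 9.9% in HBL-1, 4.42% in K422 and 2.2% in DB, and the median log2 ratio was 0 in each line. Higher calls were 1.36%, 2.34%, 5.73% and 2.83% of genes, and lower calls 0.836%, 2.08%, 4.17% and 1.64%, in the order DB, K422, HBL-1, OCI-Ly3.

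Among 18 cofactors and partners of FOXP proteins, 0, 1, 4 and 1 were called higher (DB, K422, HBL-1, OCI-Ly3), and none lower. The shares were 0%, 5.56%, 22.2% and 5.56%, and the medians ran from 0.10 to 0.16. In DB, 6 had an unadjusted limma p under 0.05 and 5 by the methods' t-test. SATB1, a chromatin organiser of lymphocytes, rose by 0.79 ± 0.17 in K422 and by 1.32 ± 0.33 in HBL-1 (SD, n = 6). In K422 it was well above background in control RNA on 3 of 6 arrays. In HBL-1 the histone deacetylases HDAC1 and HDAC7 rose by 0.59 ± 0.07 and 0.75 ± 0.15, and the NuRD subunit GATAD2B by 0.52 ± 0.19. NFATC1, a calcium-regulated transcription factor, rose by 0.73 ± 0.15 in OCI-Ly3. The limma adjusted p ran from 9.06e-09 for HDAC1 to 0.000492 for GATAD2B. With normexp and median centring HDAC1, HDAC7 and GATAD2B read 0.28, 0.28 and 0.19 and SATB1 in K422 0.23, none called. GATAD2B also lost its call with normexp and loess (0.26) and without replicate 1 (0.47) or 3 (0.49), and SATB1 in K422 with normexp and loess (0.21).

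Among 36 forkhead genes outside the FOXP group, 1, 1, 4 and 1 were called higher and 1 was called lower, in HBL-1. The shares were 2.78%, 2.78%, 13.9% and 2.78%. FOXO4, a forkhead factor restrained by AKT, was the gene called higher in all 4 lines, by 0.67 in OCI-Ly3, 1.38 in HBL-1, 0.83 in K422 and 0.84 in DB. With normexp and loess these were 0.16, 0.40, 0.30 and 0.35, and it was called in no line. In HBL-1 FOXQ1 rose by 0.78 and FOXB1 by 0.52, and FOXC1 read -0.63 ± 0.33, lower on 6 of 6 arrays. With normexp and median centring FOXQ1 read 0.33 and FOXB1 0.18, and without replicate 1 FOXB1 read 0.47, none called. FOXC1 was not called with siFOXP1 #1 alone (-0.37). Of the 36 genes, 19 were well above background in the control channel on all 6 arrays of all 4 lines, and 9 in no line.

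Among 17 genes ascribed to FOXP1 as targets in lymphoid or myeloid cells, 2, 4, 9 and 2 were called higher, and CSF1R alone was called lower, in K422. The shares were 11.8%, 29.4%, 52.9% and 11.8%, and the medians were 0, 0.17, 0.53 and 0.14. The list was assembled with earlier results of these arrays known, so the direction of its members is not independent evidence. TP53INP1, a p53-induced stress protein, rose by 1.15 ± 0.24 in OCI-Ly3, 1.69 ± 0.46 in HBL-1 and 0.51 in K422. AIM2, a sensor of cytosolic DNA, rose by 0.81 in K422 and 1.15 in HBL-1, and RASSF6, a Ras-association domain protein, by 0.56 in DB and 0.96 in K422. HIP1R, an endocytic adaptor, rose by 1.07 in HBL-1 and 0.55 in OCI-Ly3. In HBL-1 the pro-apoptotic BIK rose by 1.00, PRDM1, the plasma-cell regulator known as Blimp-1, by 0.73, and TP63 by 1.75, the last well above background in control RNA on 2 of 6 arrays. The counts include TP63 in DB and RASSF6 in HBL-1, each well above background on no control array. CSF1R, the receptor for macrophage colony-stimulating factor, read -0.99 ± 0.63 in K422, and -0.63 without replicate 1. Several of these calls rested on the setting. Without any 1 replicate, PRDM1 (0.69 to 0.77) and TP53INP1 in K422 (0.44 to 0.58) were not called. RASSF6 in DB was not called without replicate 1 (0.42) or 2 (0.47), AIM2 in K422 without replicate 1 (0.66), and HIP1R in OCI-Ly3 without replicate 3 (0.498). With normexp and loess PRDM1 read 0.18, TP63 0.34, CSF1R -0.19, TP53INP1 in K422 0.48, AIM2 in K422 0.45 and RASSF6 in DB 0.44, none called.

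Of 9 regulatory T-cell genes tied to FOXP3, 1 was called higher in DB, 1 lower in K422 and 1 lower in HBL-1, and none was called in OCI-Ly3, where 3 had an unadjusted limma p under 0.05 and 4 by the methods' t-test. LRRC32, which presents latent TGF-beta, read 0.99 ± 0.91 in DB and -1.51 ± 0.78 in K422, and the cytokine gene IL10 read -0.82 ± 0.45 in HBL-1. In DB, LRRC32 was well above background in control RNA on 2 of 6 arrays. LRRC32 in DB was not called without replicate 1 (0.58) or 2 (0.85) and read 1.55 without replicate 3. With normexp and loess it read 0.16 and IL10 -0.48, neither called. Of 8 genes tied to FOXP2, DISC1 (-0.79 ± 0.29 in K422) and VLDLR (-1.17 ± 0.91 in OCI-Ly3, lower on 5 of 6 arrays) were called. VLDLR read -0.71 without replicate 1 and was not called with OCI-Ly3 alone, with siFOXP1 #2 alone (-0.77) or by the methods' t-test, and DISC1 was not called with normexp and loess (-0.23). No FOXP2-tied gene was called in DB or HBL-1, where 0 and 2 had an unadjusted limma p under 0.05, and 0 and 2 by the methods' t-test.

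The genes whose ratios ran most like the FOXP1 coding probe over the 24 arrays, among 14936 well-measured probes, were CHCHD3 (Pearson r 0.85), CCDC23 (0.85), TBP (0.84), MFSD5 (0.83) and FAM82A2 (0.81). CHCHD3, a scaffold protein of the mitochondrial inner membrane, averaged -0.37 in OCI-Ly3, -0.56 in HBL-1, -0.34 in K422 and -0.61 in DB. The others moved little, with means from -0.34 to 0.03. Over the 12 control levels the most similar were C1orf58, FOXC1, KHDRBS3, ST7 and LOC402176, each with r of 0.99. FOXC1, a forkhead gene, stood at 4.60 in OCI-Ly3, 3.86 in HBL-1, -3.15 in K422 and -4.25 in DB. These correlations describe 4 lines that share siRNAs, controls and slides.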

How the data were processed

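The authors deposited Agilent Feature Extraction output for 24 2-colour arrays. Per the file headers, versions 10.5.1.1 (scan 1) and 10.7.3.1 (scan 2) gave, for both channels, intensity and the log10 ratio of Cy5 to Cy3, background-subtracted and dye-normalized, with flags as other columns. The authors also deposited a log2 value matrix, whose correlation with the turned scanner ratios ran from 0.804 to 0.998. Here ratios were turned to log2(siFOXP1/siCtrl). Of 45015 spots per array, 1639 control spots and 113 to 469 outlier spots were left out, and spots of a probe were averaged. R 4.3.3 with limma 3.58.1 fitted 8 groups over all arrays. Control levels averaged same-numbered arrays, since the labels do not settle whether these share control RNA, and used limma with 3 values per line. The methods' t-test was an alternative, as were normexp (offset 50), quantile scaling, dim-probe filters, slide and replicate blocks, each line alone and each siRNA alone. Same-numbered arrays of a line deviated together (r from 0.176 to 0.629 over 20812 probes, 12 of 12 above 0.1). Numbers were therefore taken as pairing in the sign-flip tests and in the alternative fit with a replicate block. The consensus correlation with that block was 0.245. The main fit had no block and treated the arrays of a line as independent. The main fits of the ratios and of the control levels were tested on simulated data with independent arrays. The alternative fits were not tested in this way.

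Members and lists were chosen with earlier results of these data known. Named genes are all FOXP probes, all genes within 1000000 bases of a FOXP1 probe, the 5 most similar genes by each measure, and up to 8 called genes per list whose probe, on all 6 arrays of that line, passed the background flag in either channel. The lists use present symbols, and HDAC7A, HTATIP, TP73L, ZNFN1A2 and ZNFN1A4 were not found. Some genes of the lists are not reported here by name.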

Additional observations from a re-analysis of the deposited data

Results flagged for a closer look

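Of 111 groups of 6 ratios and 14 groups of control levels looked at, 4 held 1 array far from the other 5 by Dixon's test, where chance gives about 5% of groups. AK022443 read -0.83 on 1 K422 array (siFOXP1 #1, replicate 1), while the others ran from -0.10 to 0.20. THC2639689 read 0.48 in OCI-Ly3 (siFOXP1 #1, replicate 3) against 0.98 to 1.21, and NFATC1 read 0.73 in DB (siFOXP1 #1, replicate 3) against 0.10 to 0.32. LRRC32 read -3.01 in K422 (siFOXP1 #1, replicate 3) against -1.50 to -0.82. No array stood apart at a FOXP probe. Each group of 6 ratios pooled both siRNAs, while the 5% holds for values of a single group. At the FOXP1 probes the siRNAs did not overlap, so this test could hardly flag 1 array there.

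Differences between groups that passed limma's threshold for the difference itself were 16. They were sought only among FOXP probes, genes near FOXP1 and the named list genes. The list genes had been picked for a call in some line, so this count is not a result about them. Over all probes such calls made up 4.24% for HBL-1 minus K422, 1.44% for OCI-Ly3 minus DB and 0.134% to 0.324% between siRNAs. For siFOXP1 #2 minus siFOXP1 #1, the FOXP1 coding probe gave -0.97 in OCI-Ly3, -0.90 in HBL-1, -0.85 in K422 and -1.40 in DB, and the FOXP1 3′ probe gave -1.01 in DB. For OCI-Ly3 minus DB, the response differed by 0.52 for HIP1R (adjusted p = 0.00242) and 0.66 for THC2610890 (0.00471). For HBL-1 minus K422, it differed by 0.94 for CSF1R (0.00790), 1.18 for TP53INP1 (0.00214), 0.53 for SATB1 (0.0482), -0.82 for FOXC1 (0.00387), 0.76 for HIP1R (1.95e-05), 1.58 for LRRC32 (0.0125) and 0.60 for HDAC7 (4.05e-05). In the same comparison it differed by 0.97 for AK022443 and 1.04 for THC2639689. The causes were not tested.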

How the results depend on the processing

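The FOXP1 fall stayed called in every line under all alternatives but the methods' t-test in DB (-1.998, adjusted p = 0.0780). With the replicate block its value was -1.998 in DB (adjusted p = 1.65e-10), and pairing changed no call at the FOXP1 probes. The difference between siRNAs kept its sign everywhere but lost its call with each line alone (-1.40 in DB, -0.85 in K422, -0.90 in HBL-1, -0.97 in OCI-Ly3) and with median centring (-1.51, -0.78, -0.87 and -0.57). Leaving out 1 replicate gave -1.55 to -1.22 in DB, -0.86 to -0.84 in K422 (call lost each time), -0.995 to -0.82 in HBL-1 (lost without replicate 3) and -0.99 to -0.94 in OCI-Ly3 (lost without replicate 1).

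Values near 0 changed sign. The coding probe minus the 3′ probe was -0.013 with median centring. The FOXP1 control level of OCI-Ly3 minus HBL-1 was -0.13 with quantile scaling and -0.037 to 0.059 without 1 replicate, and that of K422 minus DB at the 3′ probe was -0.0104 and -0.020 to 0.062. The OCI-Ly3 minus DB response was -0.017 with normexp and loess, -0.028 with median centring and -0.042 to 0.12 without 1 replicate. FOXP4 A_24_P93855 in DB was -0.20 with siFOXP1 #2 alone and -0.013 to 0.15 without 1 replicate. Without 1 replicate, AK022443 in K422 ran from -0.21 to 0.074 and THC2639689 from -0.28 to 0.073, above 0 without replicate 1. THC2651036 in HBL-1 was -0.047 with median centring, -0.074 with siFOXP1 #1 alone, and -0.017 and -0.17 without replicates 1 and 3 (highest 0.19, without replicate 2).

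For FOXP4 A_24_P93855, HBL-1 passed with siFOXP1 #2 alone (0.53) and gave 0.46 to 0.50 without 1 replicate, being called without replicate 2, but 0.24 with median centring. OCI-Ly3 was not called with normexp and loess (0.44), median centring (0.42) or siFOXP1 #2 alone (0.43), and gave 0.47 to 0.62 without 1 replicate. With the replicate block, its siRNA difference in DB (-0.51) was called (adjusted p = 0.0474 against 0.129). FOXP2 to FOXP4 calls, 0, 0, 0 and 1 (DB, K422, HBL-1, OCI-Ly3), became 2 with the matrix and 1 with dim probes left out in DB, 1 with dim probes left out, HBL-1 alone or siFOXP1 #2 alone in HBL-1, and 0 with either normexp setting in OCI-Ly3. Leaving out 1 replicate gave 0 to 1 in DB and HBL-1 and 1 to 2 in OCI-Ly3.

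List genes called in DB, 4, became 9 with any probe, 0 with DB alone, loess or the t-test, 1 with median centring or slide as a block, 2 with the replicate block and 2 with siFOXP1 #1 alone. They fell from 19 to 12 (loess) and 8 (median centring) in HBL-1, and from 9 to 3 with either in K422. Of 32 calls of list genes well above background, 17 were lost with normexp and loess, 19 with median centring, 6 with each line alone and 8 on leaving out some replicate. The causes were not tested. Calls between siRNAs with the replicate block were 365, 69, 124 and 88 in the 4 lines, against 133, 55, 76 and 68. Signals near background limit all FOXP3 readings, most FOXP4 readings, and all FOXP2 readings but that of A_24_P38316 in OCI-Ly3.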
